A study of Homo sapiens with 6 samples.

Results

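The genes described here are 10 transcripts that report on signalling through ERK, the kinase at the end of the RAS, RAF, MEK and ERK cascade, in CAOV2 human ovarian cancer cells after silencing of TAZ. They were chosen by symbol as DUSP4, DUSP5, DUSP6, SPRY2, SPRY4, SPRED1, SPRED2, ETV4, ETV5 and PHLDA1. All 10 were found among the 17211 genes of the deposited table, and all 10 passed the filter on low values that left 17204 genes for testing. The study sequenced RNA of 3 siTAZ libraries, from cells that received siRNA to silence TAZ, and of 3 siNT libraries, from cells that received a non-targeting siRNA. In both groups 100000 cells were seeded in a well and exposed for 2 days to 100 pmol of siRNA with 6 µL of a lipid reagent, and cells were collected on day 3, per the labels' protocols. CAOV2 appears in the labels as a cell line and also as primary ovarian cancer cells. The libraries are labelled biological replicates, but nothing tells whether cultures were independent. P-values therefore cover only the variation among these libraries, which may be technical. For TAZ the labels give 1 catalogue number and not whether it is a pool, and with no other siRNA against TAZ in the libraries, loss of TAZ and effects of that reagent on other transcripts cannot be told apart.

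TAZ, encoded by WWTR1, is a coactivator of the Hippo pathway that works with TEAD transcription factors. ERK is switched on by growth factor receptors through RAS, RAF and MEK, and it induces the genes of its own inhibitors, which makes those transcripts a common readout of pathway output in cancer cells. DUSP4, DUSP5 and DUSP6 encode phosphatases that remove the activating phosphates from ERK and related kinases. The Sprouty (SPRY) and SPRED proteins act further up, between the receptor and RAF, with SPRED1 and SPRED2 bringing the RAS inhibitor neurofibromin to the membrane. ETV4 and ETV5 are ETS transcription factors whose genes are induced by ERK signalling, and PHLDA1 encodes a protein with a pleckstrin homology-like domain that is induced by growth factors. Only RNA was measured, so the activity of ERK itself is unknown here.

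Depth in genes was 28458503 to 34488196 reads in siTAZ and 25478595 to 28928432 in siNT. WWTR1 averaged 266 ± 21.0 in siTAZ and 4278 ± 73.2 in siNT, 16.1-fold lower (log2 fold change -4.004, SE 0.064, limma adjusted p = 8.0e-17), as the labels say. Its paralog YAP1 averaged 4875 ± 185 in siTAZ and 5992 ± 213 in siNT (log2 fold change -0.30, limma adjusted p = 4.7e-05). Each level below is a deposited value, meaning the reads of a gene over its library's size factor, and ± is the SD over n = 3 libraries per group. Of 10 markers of ovarian carcinoma epithelium, 9 had values, which summed to 92372 to 100630 in siTAZ libraries and 96360 to 104808 in siNT libraries. By limma 5 of the 9 were higher (EPCAM, CDH1, MSLN, KRT19 and KRT8), 2 were lower (KRT7 and KRT18) and 2 did not pass. Over all genes tested 28.3% were higher and 27.5% lower. The adhesion gene EPCAM averaged 1361 in siTAZ and 501 in siNT (log2 fold change 1.44), and E-cadherin (CDH1) 579 in siTAZ and 256 in siNT (log2 fold change 1.18). Keratin 7 (KRT7) averaged 8604 in siTAZ and 22847 in siNT (log2 fold change -1.41), while KRT19 and KRT18 had log2 fold changes of 0.67 and -0.30. Keratin 8 (KRT8) averaged 39346 in siTAZ and 35206 in siNT (log2 fold change 0.16). The Müllerian lineage factor PAX8 averaged 18.2 in siTAZ and 28.8 in siNT, and the CA125 gene MUC16 7.98 in siTAZ and 11.9 in siNT. MSLN, though called higher, averaged only 7.64 in siTAZ and 2.63 in siNT. PAX8, MUC16 and MSLN, markers of the labelled tumour type, were thus scarce. WT1 was the marker of the 10 that had no values. Summed over the library, the 2 measured leukocyte markers of 6 came to 129.6 to 135 in siTAZ and 69.1 to 79.1 in siNT, most of it CD14, and the 4 measured fibroblast markers of 6 came to 3972 to 4603 in siTAZ and 4012 to 4662 in siNT, most of it LUM. None of the 5 endothelial markers and not the leukocyte marker PTPRC had values, and the part of these markers in the results was not tested.

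Silencing of TAZ was followed by a modest rise in most of these ERK feedback transcripts. By limma at an adjusted p under 0.05, a threshold that 55.8% of all genes passed, 7 of the 10 were higher in siTAZ (SPRY4, DUSP5, SPRY2, DUSP4, ETV5, DUSP6 and SPRED2), 2 were lower (PHLDA1 and SPRED1) and ETV4 did not pass. The call of SPRED1 depends on the test, the scaling and single libraries, as described further below. The shares over all 17204 genes were 28.3% higher and 27.5% lower. Among the 6343 genes whose mean was 1000 or more, as all 10 had, 30% were called higher and 38.4% lower. The median log2 fold change of the 10 was 0.34, beside -0.00 over all genes tested and -0.04 over those abundant genes. The 10 were chosen with earlier results of these data known, so standing above these shares is a description and not a test. No rise reached 2-fold: the rises ran from 1.21-fold for SPRED2 to 1.58-fold for SPRY4. Against a minimum change of 1.2-fold, limma's treat test called 4 of the 10 higher (SPRY4, DUSP5, DUSP4 and SPRY2) and 0 lower, beside 14.5% of all genes called higher, 11.2% lower and 25.7% in either direction. EdgeR's quasi-likelihood test on the recovered reads called 7 of the 10 higher and 1 lower.

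**Figure D1:**
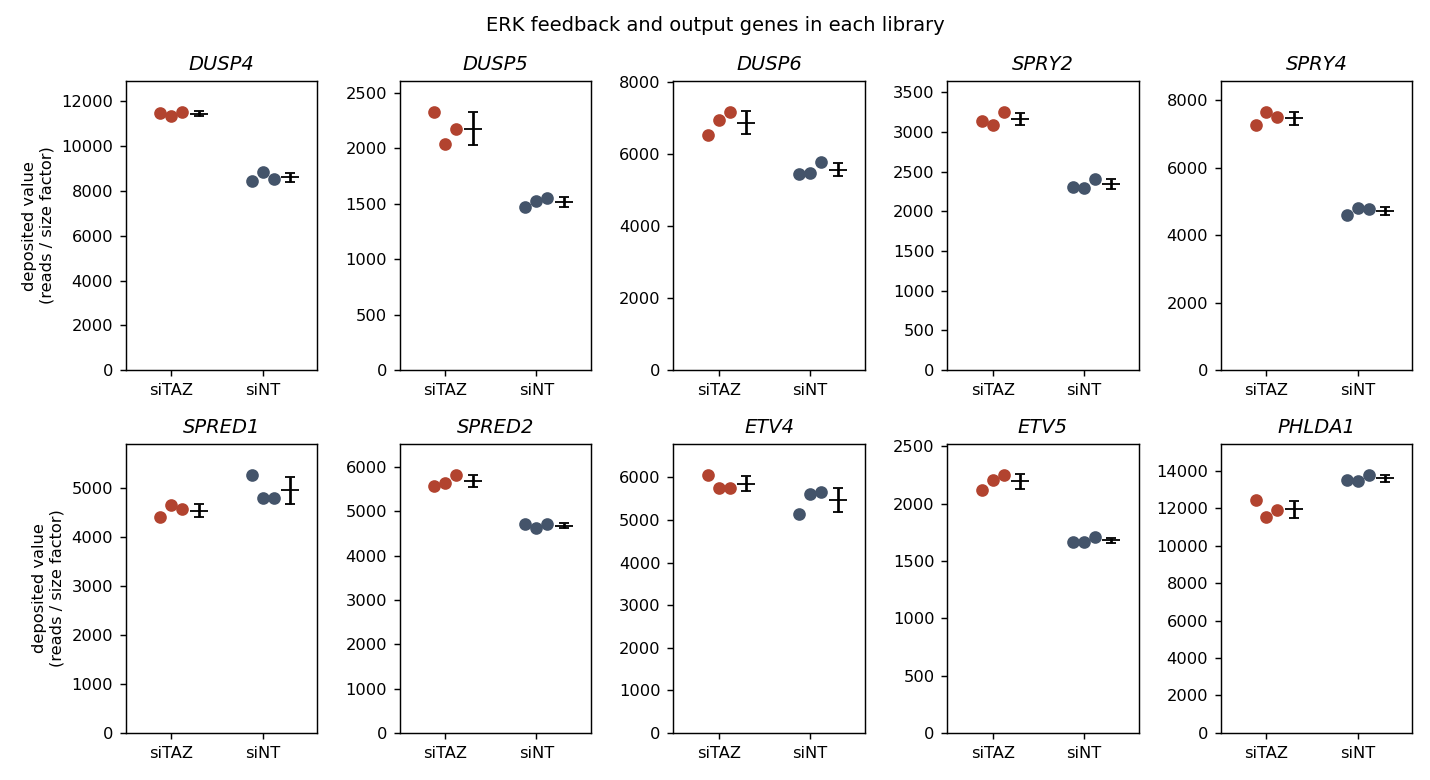
Deposited value (reads divided by the size factor) of each gene in the 3 siTAZ libraries (left, red) and the 3 siNT libraries (right, blue), with mean and SD beside the points. In 8 panels the siTAZ points lie above the siNT points and in 2 (SPRED1 and PHLDA1) they lie below, with gaps that are narrow for ETV4 and SPRED1.

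In each of the 10 genes the siTAZ and siNT libraries did not overlap, with siTAZ above in 8 and below in 2. Such separation is common in these data, at 31.1% of all genes tested with siTAZ above and 30.3% with siTAZ below, 61.4% together. The genes are well covered, with 1286 to 13937 reads per library, and their spread within a group was small, with a coefficient of variation of 0.877% to 6.68%.

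Promoter sequence is shown for SPRY4 and SPRY2, the Sprouty genes that rose together, for DUSP6, which rose less, and for PHLDA1, which fell. Each window is the 250 bases before the transcript start, 5′ to 3′, from RefSeq on GRCh38.p14, while the reads were counted on hg19. Capitals mark TGACG, the core of the CRE, which is bound by CREB and ATF factors.
SPRY4, chr5:142324248-142324497, minus strand: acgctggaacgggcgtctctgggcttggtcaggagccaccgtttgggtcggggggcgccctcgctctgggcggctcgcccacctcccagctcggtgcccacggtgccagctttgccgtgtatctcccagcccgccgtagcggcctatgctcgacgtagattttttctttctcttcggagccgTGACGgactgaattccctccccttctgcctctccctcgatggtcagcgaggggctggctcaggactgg
SPRY2, chr13:80341127-80341376, minus strand: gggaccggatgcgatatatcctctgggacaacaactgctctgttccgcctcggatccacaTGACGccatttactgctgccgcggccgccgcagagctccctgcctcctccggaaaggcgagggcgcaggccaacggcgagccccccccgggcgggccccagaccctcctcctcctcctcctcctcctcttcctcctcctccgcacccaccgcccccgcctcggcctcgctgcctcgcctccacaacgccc
DUSP6, chr12:89352502-89352751, minus strand: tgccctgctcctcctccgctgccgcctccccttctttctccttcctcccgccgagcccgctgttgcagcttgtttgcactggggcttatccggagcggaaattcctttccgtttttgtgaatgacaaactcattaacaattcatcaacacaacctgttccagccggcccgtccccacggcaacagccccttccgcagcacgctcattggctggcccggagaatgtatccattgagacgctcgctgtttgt
PHLDA1, chr12:76031777-76032026, minus strand: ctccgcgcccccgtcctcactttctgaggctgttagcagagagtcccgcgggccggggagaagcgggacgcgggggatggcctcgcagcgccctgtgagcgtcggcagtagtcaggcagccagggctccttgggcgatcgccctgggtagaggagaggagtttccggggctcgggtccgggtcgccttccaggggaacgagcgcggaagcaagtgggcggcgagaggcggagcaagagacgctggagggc
RefSeq windows were matched by symbol for 6 of the 10 genes, with 9 windows in all, and the SPRY2 window printed is the most upstream of its 3. Searched on both strands, TGACG was in 2 of the 9 windows, those of SPRY4 and SPRY2 above, and in 21.2% of all 35116 windows, so the share in these genes is near the background. The other motifs searched were CCGGAAG (ETS), TGANTCA (AP-1), TGAATGNA (the repressor CIC) and GGAATG (TEAD), and no motifs overlapped since only TGACG was found. The others were in 0 of the 9 windows and in 8.52%, 6.57%, 3.25% and 11.9% of all windows. GC content was 65.6% for SPRY4, 70.4% for SPRY2, 57.2% for DUSP6 and 70.4% for PHLDA1, beside a median of 58% over all windows.

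The 3 phosphatase genes rose. DUSP4 (ENSG00000120875, chromosome 8), a nuclear phosphatase of ERK and JNK, had values of 11494, 11337 and 11524 in siTAZ and 8458, 8840 and 8521 in siNT. The siTAZ libraries lay close together and far above siNT, with a 1.33-fold higher mean (log2 fold change 0.41, SE 0.043, limma adjusted p = 3.6e-07). DUSP5 (ENSG00000138166, chromosome 10) is nuclear and selective for ERK. Its values were 2328, 2038 and 2173 in siTAZ and 1471, 1524 and 1554 in siNT. It was the least abundant of the 10 in deposited value and the most spread within siTAZ, and its mean was 1.44-fold higher (log2 fold change 0.52, SE 0.057, limma adjusted p = 6.5e-07). DUSP6 (ENSG00000139318, chromosome 12), the cytoplasmic phosphatase of ERK, had values of 6517, 6928 and 7159 in siTAZ and 5446, 5474 and 5761 in siNT. The rise was 1.24-fold (log2 fold change 0.30, SE 0.048, limma adjusted p = 4.3e-05) and did not pass the test against 1.2-fold (limma treat adjusted p = 0.48).

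Both Sprouty genes rose, SPRY4 the most of the 10. SPRY4 (ENSG00000187678, chromosome 5) had values of 7253, 7643 and 7482 in siTAZ and 4587, 4806 and 4776 in siNT, so the lowest siTAZ library exceeded the highest siNT library by 2448. Its mean was 1.58-fold higher (log2 fold change 0.66, SE 0.045, limma adjusted p = 2.1e-09). By size of rise it was still behind 2282 of the genes tested. SPRY2 (ENSG00000136158, chromosome 13), which interferes with GRB2 and RAF, had values of 3142, 3091 and 3250 in siTAZ and 2311, 2294 and 2410 in siNT, again well apart, with a 1.35-fold higher mean (log2 fold change 0.43, SE 0.048, limma adjusted p = 7.6e-07). SPRY4-AS1, a transcript from the opposite strand at SPRY4, averaged 30.7 ± 6.75 in siTAZ and 42.3 ± 4.85 in siNT and did not pass (limma adjusted p = 0.070). Its reads are few beside those of SPRY4. The kit keeps strand, but no source used here gives the strand setting of the counting.

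The SPRED genes, which share a mechanism, did not move together. SPRED2 (ENSG00000198369, chromosome 2) had values of 5578, 5652 and 5830 in siTAZ and 4707, 4618 and 4718 in siNT, which is a rise of 1.21-fold (log2 fold change 0.28, SE 0.044, limma adjusted p = 3.8e-05). That rise was past zero but not past 1.2-fold (limma treat adjusted p = 0.71). SPRED1 (ENSG00000166068, chromosome 15), the gene of Legius syndrome, had values of 4409, 4648 and 4578 in siTAZ and 5276, 4796 and 4808 in siNT. The groups were separated by 148, and 1 siNT library, replicate 1, stood above the other two. The mean was 1.09-fold lower (log2 fold change -0.13, SE 0.050, limma adjusted p = 0.042). This call held in 7 of 18 alternatives (adjusted p 0.037 to 0.24): edgeR gave 0.0505, and without siNT replicate 1 the log2 fold change was -0.080 (limma adjusted p = 0.19). The 95% interval of the difference ran from -0.23 to -0.02.

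Of the ETS factors, ETV5 rose and ETV4 did not pass. ETV5 (ENSG00000244405, chromosome 3) had values of 2122, 2208 and 2253 in siTAZ and 1665, 1665 and 1709 in siNT. All siTAZ libraries lay above a tight siNT group, with a 1.31-fold higher mean (log2 fold change 0.39, SE 0.050, limma adjusted p = 5.0e-06). ETV4 (ENSG00000175832, chromosome 17) had values of 6064, 5747 and 5750 in siTAZ and 5151, 5616 and 5666 in siNT. The groups were only 80.3 apart, with siNT replicate 1 lower than the other two, and the difference did not pass (log2 fold change 0.10, 95% interval -0.01 to 0.20, limma adjusted p = 0.11). Without siNT replicate 1 the log2 fold change was 0.053 (limma adjusted p = 0.38). It passed in 1 of 18 alternatives, total count scaling (log2 fold change 0.15, limma adjusted p = 0.012), and the adjusted p over the 18 ran from 0.012 to 0.38. ETV4 overlaps DHX8 on the opposite strand in GENCODE. DHX8 averaged 1968 ± 48.2 in siTAZ and 2086 ± 25.1 in siNT and did not pass either (limma adjusted p = 0.15). DGKG, which overlaps ETV5 on the same strand, was far scarcer than ETV5, at 162 ± 9.79 in siTAZ and 70.2 ± 11.1 in siNT.

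PHLDA1 (ENSG00000139289, chromosome 12), the most abundant of the 10 in deposited value, went the other way. Its values were 12435, 11534 and 11887 in siTAZ and 13515, 13477 and 13795 in siNT, with all siTAZ libraries below siNT. The mean was 1.14-fold lower (log2 fold change -0.19, SE 0.044, limma adjusted p = 0.0018). The call held in 18 of 18 alternatives (adjusted p 0.00023 to 0.025), while the test against 1.2-fold did not pass (limma treat adjusted p = 1.0). PHLDA1-AS1 and PHLDA1-DT lie on the opposite strand, with means of 52.9 and 9.18 over the 6 libraries.

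**Figure D2:**
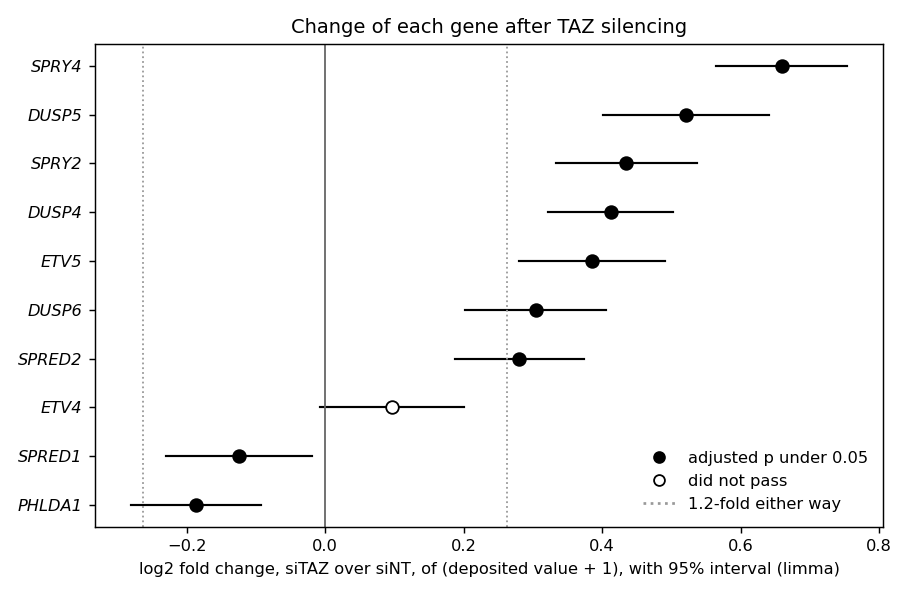
Log2 fold change of each gene, siTAZ over siNT, with its 95% interval from limma (log2 of deposited value + 1, n = 3 per group). Filled points passed at an adjusted p under 0.05, and the intervals of SPRY4, DUSP5, SPRY2, DUSP4 and ETV5 lie wholly above the dotted line at 1.2-fold, while ETV5 did not pass the treat test after adjustment (0.051).

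**Figure D3:**
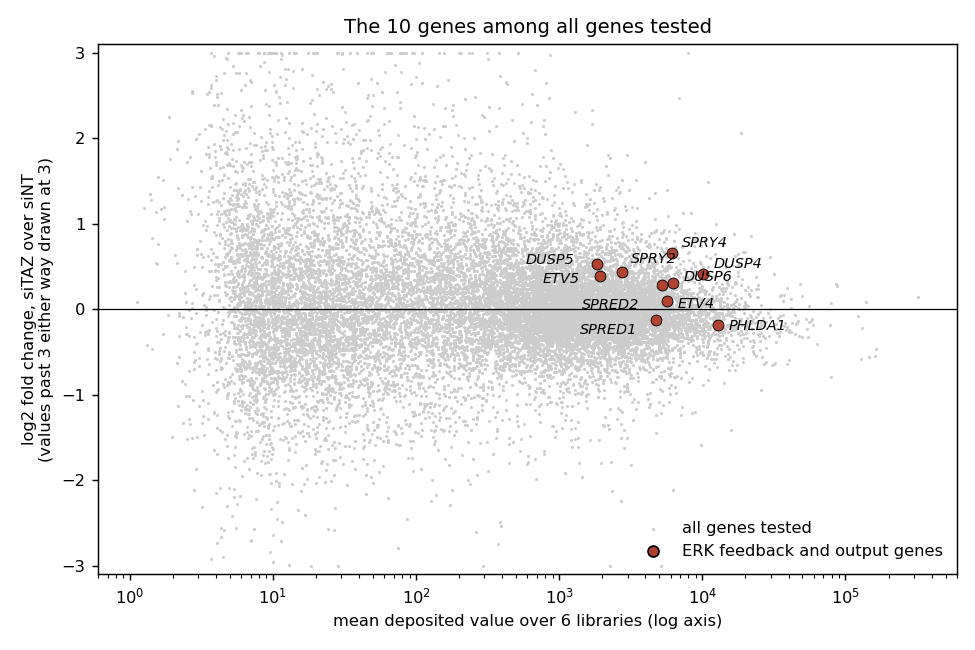
Log2 fold change, siTAZ over siNT, against the mean deposited value over 6 libraries (log axis), with all genes tested in grey (values past 3 either way drawn at 3) and the 10 genes in red. The 10 lie among the abundant genes, and their changes, from -0.19 to 0.66, lie within the spread of other genes of that abundance.

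Ratios within a library show how far related genes parted, free of the library's scaling. The ratios are of deposited values, which are not corrected for transcript length, so their sign does not rank the levels of 2 genes. The log2 ratio of SPRED2 to SPRED1 was 0.34, 0.28 and 0.35 in siTAZ and -0.16, -0.05 and -0.03 in siNT. Per kilobase of exon (TPM, described below) SPRED2 was above SPRED1 in both groups, at 148 and 74.0 in siTAZ and 115 and 76.1 in siNT. The difference of 0.41 in the log2 ratio between siTAZ and siNT was the widest of the 4 pairs compared. For ETV5 to ETV4 the ratio averaged -1.42 ± 0.09 in siTAZ and -1.70 ± 0.07 in siNT (SD, n = 3 each), a difference of 0.29. For SPRY4 to SPRY2 it averaged 1.24 ± 0.06 in siTAZ and 1.01 ± 0.05 in siNT, a difference of 0.22. The ratio of DUSP6 to DUSP5 was lower, at 1.66 ± 0.15 in siTAZ and 1.87 ± 0.03 in siNT, a difference of -0.22, with siTAZ replicate 1 the lowest at 1.48. Without that library the difference was -0.13. In all 4 pairs the siTAZ and siNT libraries did not overlap, and the two-sided exact permutation p was 0.1 for each (0.1 adjusted over the 4), the smallest that 3 against 3 libraries allow, so none can pass 0.05. Of single genes tested 61.4% separated in this way. The share over other pairs of genes was not computed, so the separation is not particular to these pairs.

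**Figure D4:**
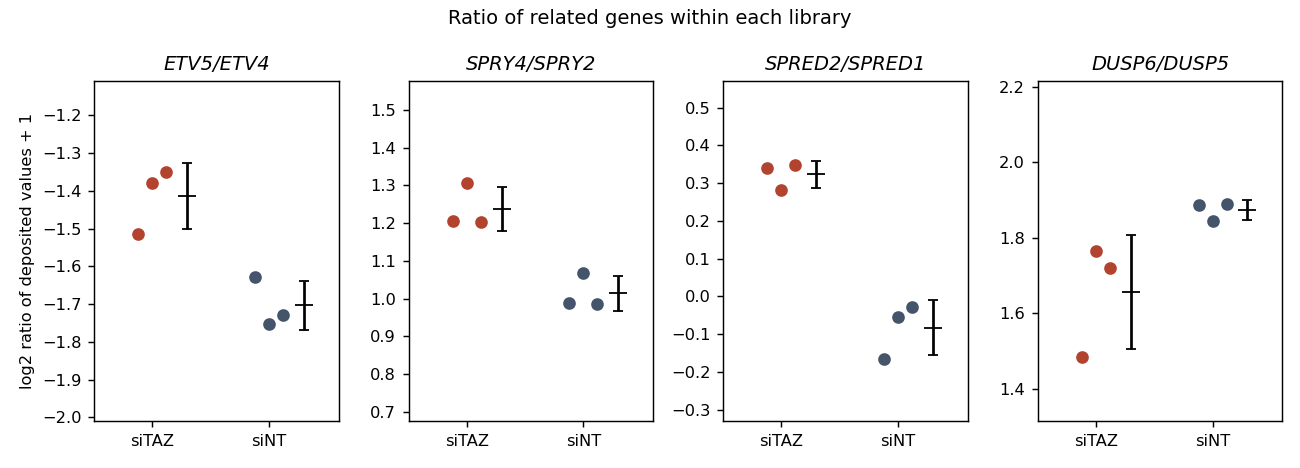
Log2 ratio of 2 related genes (deposited values + 1) in each siTAZ (left, red) and siNT (right, blue) library, with mean and SD. All panels span the same height on the log2 scale, and the groups are separate in each, with the widest gap for SPRED2 over SPRED1.

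Levels were set side by side as TPM, that is reads per kilobase of exon scaled to the same total in every library. In siTAZ the order was ETV4 (218 ± 5.44), DUSP4 (212 ± 2.87), DUSP6 (199.5 ± 11.03), PHLDA1 (199 ± 6.85), SPRY4 (153 ± 4.73), SPRED2 (148 ± 4.61), SPRY2 (140.0 ± 4.52), DUSP5 (112 ± 7.10), SPRED1 (74.0 ± 2.41) and ETV5 (50.9 ± 1.95 TPM). Neighbours whose libraries overlapped there were ETV4 with DUSP4, DUSP6 with PHLDA1, SPRY4 with SPRED2, and SPRED2 with SPRY2. In siNT PHLDA1 led at 213 ± 1.36 TPM, followed by ETV4 at 192 ± 9.002, DUSP6 at 152 ± 3.65 and DUSP4 at 150.2 ± 3.89, with DUSP6 and DUSP4 overlapping. Then came SPRED2 (115 ± 1.29), SPRY2 (97.5 ± 1.95), SPRY4 (91.1 ± 1.97), SPRED1 (76.1 ± 4.602) and DUSP5 (73.4 ± 1.57), of which SPRED1 and DUSP5 overlapped, and ETV5 was again last at 36.7 ± 0.292 TPM. In mean TPM SPRY4 thus stood above SPRY2 and SPRED2 in siTAZ and below both in siNT. In deposited value, which is not corrected for length, SPRY4 was above SPRY2 in both groups. The highest level was 4.29-fold the lowest in siTAZ and 5.82-fold in siNT.

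Related genes of the same families moved in both directions. SPRY1 rose to 2973 ± 106 in siTAZ, against 1911 ± 69.7 in siNT (1.56-fold, limma adjusted p = 1.5e-08), as its relatives SPRY2 and SPRY4 did, and SPRY3 did not pass at 19.4 ± 5.15 in siTAZ and 25.9 ± 4.82 in siNT. ETV1, the third factor of the PEA3 group with ETV4 and ETV5, rose to 3362 ± 198 in siTAZ, against 1981 ± 88.1 in siNT (1.70-fold, limma adjusted p = 4.4e-09). SPRED3 fell to 50.9 ± 6.31 in siTAZ, against 131 ± 5.87 in siNT (2.57-fold lower, limma adjusted p = 3.9e-07), and PHLDA2, an imprinted relative of PHLDA1, fell to 1208 ± 41.9 in siTAZ, against 3215 ± 269.8 in siNT (2.66-fold lower, limma adjusted p = 8.8e-12). In all, 2 of these 6 genes were higher, 3 lower and 1 did not pass, beside 28.3% higher and 27.5% lower over all genes tested. The median log2 fold change of the 6 was -0.84, a value that no gene was near. It fell between SPRY3 (-0.42) and PHLDA3 (-1.26, named after its values were seen). Both were scarce, with means of 22.6 and 62.6 over the 6 libraries. Of 7 other MAPK phosphatase genes, 3 were higher and 0 lower, while 4 did not pass. Their median log2 fold change was 0.20. DUSP16, a phosphatase of JNK and p38, averaged 875 ± 34.02 in siTAZ and 469 ± 27.3 in siNT (1.86-fold, limma adjusted p = 8.3e-09), DUSP8 rose 1.79-fold (limma adjusted p = 1.9e-06) and DUSP9, which is selective for ERK, 1.19-fold (limma adjusted p = 0.0030). DUSP1, an immediate early phosphatase gene, did not pass at 775 ± 68.2 in siTAZ and 819 ± 38.6 in siNT, nor did DUSP7 at 826 ± 63.3 in siTAZ and 849.6 ± 82.2 in siNT.

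Genes of the cascade itself moved in both directions. The 23 genes listed run from the receptor adaptors to the ERK kinases, with RPS6KA1 and RPS6KA3 of the kinases below ERK. Of these, 11 were higher, 6 lower and 6 did not pass, beside 28.3% higher and 27.5% lower over all genes tested. The median log2 fold change of the 23 was 0.13. Under total count scaling 13 were higher and 5 lower, and in DESeq2 10 were higher and 5 lower. PTPN11, the SHP2 phosphatase that receptors need to activate RAS, fell to 4229 ± 359 in siTAZ, against 9957 ± 261 in siNT (2.35-fold lower, limma adjusted p = 1.5e-11), and the adaptor SHC1 fell 1.53-fold (limma adjusted p = 6.8e-09). In contrast SOS2, an exchange factor that loads RAS with GTP, rose 1.71-fold to 1030 ± 47.1 in siTAZ, against 601 ± 54.6 in siNT (limma adjusted p = 8.0e-08), and the adaptor GRB2 rose 1.33-fold (limma adjusted p = 1.4e-06). The scaffold IQGAP1 and the MEK gene MAP2K2 did not pass, with log2 fold changes of -0.08 and 0.13. MAPK3, which encodes the kinase ERK1 and was added after its values were seen, averaged 711 ± 20.2 in siTAZ and 634 ± 28.2 in siNT (limma adjusted p = 0.036), a call that held in 12 of 18 alternatives (adjusted p 0.0083 to 0.12).

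Among 12 other inhibitors of RAS and RAF signalling, 4 were higher, 4 lower and 4 did not pass. Over all genes tested the shares were 28.3% higher and 27.5% lower. The median log2 fold change of the 12 was -0.01 and turned to 0.04 under total count scaling, so it had no stable sign. SPRED3, above, is also among the 4 lower. PEA15, which holds ERK in the cytoplasm, fell to 2119 ± 73.2 in siTAZ, against 4756 ± 214 in siNT (2.24-fold lower, limma adjusted p = 8.6e-12). PAQR3, which tethers RAF to the Golgi, fell to 705 ± 88.5 in siTAZ, against 1725 ± 109 in siNT (2.45-fold lower, limma adjusted p = 5.0e-10). DAB2IP, a RAS GTPase-activating protein, rose 1.43-fold (limma adjusted p = 1.6e-06). ERRFI1, the feedback inhibitor of EGFR known as MIG6, and the phosphatase gene PTPN12 did not pass, with log2 fold changes of -0.08 and 0.04.

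In the transcription layer below ERK, 2 of 10 ETS and CIC genes were higher, 5 lower and 3 did not pass. Over all genes tested the shares were 28.3% higher and 27.5% lower. The median log2 fold change of the 10 ETS and CIC genes was -0.17. Under total count scaling 3 were higher and 5 lower, and in DESeq2 1 was higher and 5 lower. ETS1 fell to 1900 ± 32.4 in siTAZ, against 4689 ± 218 in siNT (2.47-fold lower, limma adjusted p = 2.2e-12). ELK3, a partner of SRF, fell 2.04-fold (limma adjusted p = 5.5e-11), ETS2 1.47-fold (limma adjusted p = 6.0e-07) and ETV3, an ETS repressor, 1.35-fold (limma adjusted p = 5.4e-06). CIC, the repressor that ERK signalling lifts from ETV1, ETV4 and ETV5, averaged 4881 ± 410 in siTAZ and 4532 ± 297 in siNT and did not pass (limma adjusted p = 0.15), nor did ELK1 (limma adjusted p = 0.11).

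Other genes known as outputs of ERK signalling mostly went down. Of 18, 4 were higher, 12 lower and 2 did not pass, beside 28.3% higher and 27.5% lower over all genes tested. The median log2 fold change of the 18 was -0.33, beside 7 higher, 2 lower and a median of 0.34 for the 10 genes described above. The difference between these lists was not tested. VGF, a neuropeptide precursor gene, averaged 1073 ± 92.3 in siTAZ and 9188 ± 868 in siNT (8.56-fold lower, limma adjusted p = 5.6e-15). The AP-1 gene FOSL1, whose protein ERK stabilises, averaged 2712 ± 380 in siTAZ and 5601 ± 574 in siNT (2.07-fold lower, limma adjusted p = 1.1e-08). MAFF, a small MAF factor gene, fell 2.27-fold (limma adjusted p = 1.6e-09) and HMGA1, a chromatin protein gene, 1.57-fold (limma adjusted p = 1.4e-07). The 4 higher genes, named after their values were seen, were EREG (1.44-fold), EPHA4 (1.38-fold), ZFP36 (1.30-fold) and MYC (1.16-fold). The call of MYC held in 12 of 18 alternatives. VEGFA and AREG did not pass, with log2 fold changes of -0.03 and -0.11. The counts of higher and lower genes in this list were 4 and 12 under TMM, total count and upper quartile scaling too, and 3 and 12 in DESeq2.

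**Figure D5:**
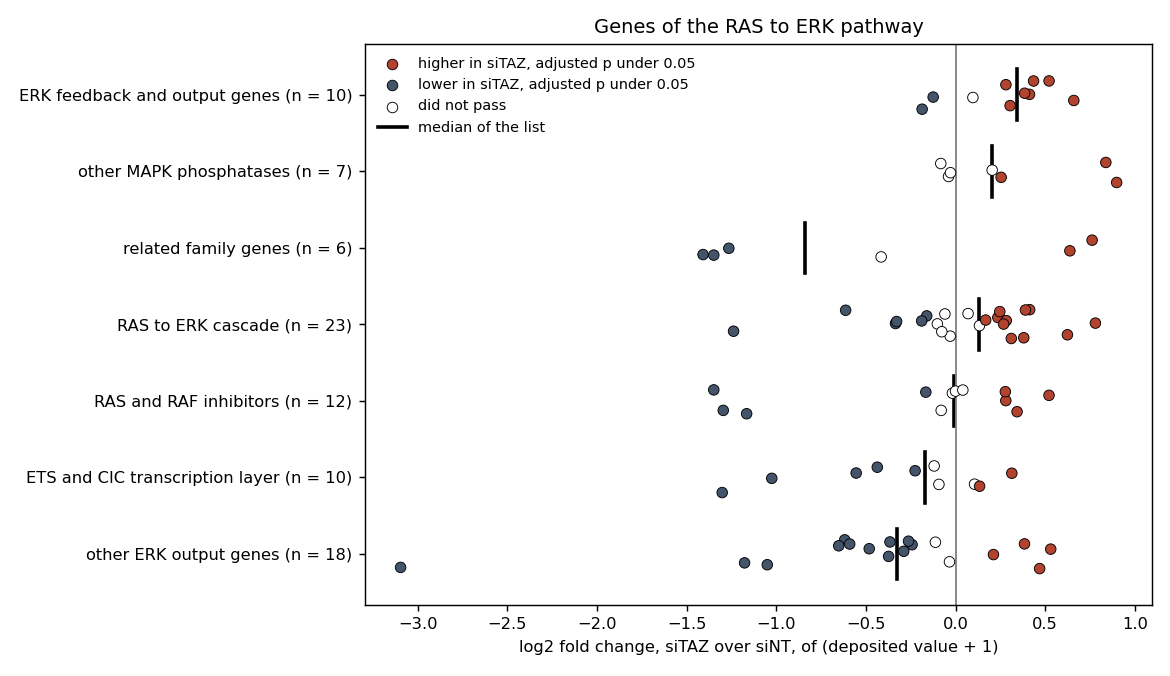
Log2 fold change, siTAZ over siNT, of each gene in 7 lists of the RAS to ERK pathway (points, coloured by limma's call, spread vertically only to separate them) with the list's median as a bar. The medians run from 0.34 for the feedback and output genes to -0.33 for the other ERK outputs and -0.84 for the 6 related family genes. The bar of those 6 lies in a gap between the points.

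The genes whose profile over the 6 libraries was most like that of PHLDA1, the most abundant of the 10, were found by Pearson's r of log2 values among 11327 genes with a mean of at least 100. They were GMPPA (r = 0.998), MEAK7 (0.997) and SPCS1 (0.997), which had log2 fold changes of -0.19, -0.30 and -0.16. With libraries in 2 groups such values come easily: 20.9% of the genes had an r over 0.9 with PHLDA1.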

How the data were processed

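RNA was sequenced from libraries made with a stranded mRNA kit from 1 µg of total RNA, per the labels' protocols. The tools named are FastQC, HISAT2, HTSeq and DESeq2, with hg19 as the build, per the submitters' processing notes. Nothing used here states versions, annotation, strand setting or gene filter. What the authors deposited is a signal value per gene, reads divided by 1 size factor per library (0.828 to 1.17). Within 0.001, 100% of the values came out as whole multiples of 1 read's value, and the reads recovered in this way were 28458503, 31903484 and 34488196 in siTAZ and 28928432, 28544414 and 25478595 in siNT, replicates 1 to 3.

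As these are not raw counts, the fit used limma 3.58.1 (R 4.3.3) with an intensity trend on log2(deposited value + 1), with group as the only term. Genes under a mean of 1 were left out. P-values were adjusted by Benjamini-Hochberg over all genes tested, with a threshold of 0.05. Fold changes in log2 are on that scale and folds are of mean deposited values. Standard errors and 95% intervals are limma's. EdgeR 4.0.16, which called 9630 genes against limma's 9604, DESeq2 1.42.0 and limma voom on the recovered reads, other scalings, filters and pseudocounts, a replicate term and leaving out each library were the alternatives. The tests were also tried on simulated data with far fewer changed genes than were called here. That trial gives no error rate for these data. Paralog ratios were compared by exact permutation in Python 3.11.15 with scipy 1.17.1.

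Gene names came from a gene table (16662 genes) and GENCODE release 29 (81), and 468 genes stayed unnamed. Exon lengths for TPM came from GENCODE on GRCh38. The genes and lists were chosen with earlier results of these data known. Besides the 10 genes, WWTR1 and YAP1 were named as checks, and from each other list up to 4 called genes with the smallest adjusted p and up to 2 uncalled genes with the highest mean. Likeness was computed for the 2 of the 10 with the highest mean. Some genes that these rules name are not reported here.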

Additional observations from a re-analysis of the deposited data

How the results depend on the processing

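The direction of each of the 10 genes and of each paralog ratio held under all alternatives run for it. Calls of DUSP4, DUSP5, SPRY2 and SPRY4 held under all 19, and those of DUSP6, SPRED2, ETV5 and PHLDA1 under 18, being lost only against a 1.2-fold change, a test added after seeing the data (log2 fold changes 0.30, 0.28, 0.39 and -0.19 as before). That test called 4417 genes in all, 4 of the 10 higher and 0 lower. ETV4 passed, at 0.15, under total count scaling. SPRED1 lost its call, leaving 1 gene of the 10 called lower, at log2 fold changes of -0.12 under TMM scaling, -0.072 under total count scaling, -0.12 in edgeR, -0.12 in voom, -0.13 without the intensity trend and -0.13 with the replicate block or against 1.2-fold. Leaving out 1 library gave SPRED1 -0.15 to -0.080 and 1 to 2 genes called lower. The cause was not tested. Replicate 1 stood apart over all genes in both groups, by a chi-square per degree of freedom between the reads of 2 libraries. The chi-square was 6.69 and 5.50 for siNT replicate 1 against replicates 2 and 3, and 2.75 between replicates 2 and 3. In siTAZ replicate 1 gave 8.62 and 7.57, against 2.90 between replicates 2 and 3. Same-numbered libraries did not deviate together (Pearson's r across genes -0.08, -0.02 and 0.01, and siTAZ replicate 1 was closest to siNT replicate 2). A weak effect shared by paired cultures could go unseen here, so whether the titles' numbers pair the libraries stays unknown. The replicate block called 8701 genes, and it changed no call of the 10 but that of SPRED1. MAPK3 also lost its call there (limma adjusted p = 0.10). Total count scaling shifted the median of all genes by 0.05 on the log2 scale. The values of the 10 genes rested on 1286 to 13937 reads per library.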
